A study of Homo sapiens with 10 samples.

Results

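Serine synthesis from glucose and the 2 serine hydroxymethyltransferases were followed at the RNA level in LNCaP-C4-2 cells, an established human line that models castration-resistant prostate cancer. The genes were the 5 rows of the count table named PHGDH, PSAT1, PSPH, SHMT1 and SHMT2, out of 57353 gene symbols, and all 5 were among the 17230 genes that passed the filter on low counts and were tested. The 10 samples came from 4 lentiviral lines. NT (2 samples) carried a scrambled control shRNA, KD (3 samples) a CPT1A-targeting shRNA, EV (2 samples) the empty vector, and OE (3 samples) CPT1A cDNA. CPT1A is the enzyme of the outer mitochondrial membrane that commits long-chain fatty acids to oxidation. NT and KD cells were selected with 1 µg/mL puromycin, and EV and OE cells with 5 µg/mL blasticidin, so vector and drug cannot be told apart between the control lines. All lines grew in serum-containing medium with non-essential amino acids, a supplement that provides serine and glycine. A single line of each kind and a single CPT1A shRNA are described, with no separate transductions, so p-values measure the spread between samples of a line, which may be technical. In bulk RNA, fewer cells of a type and less RNA per cell cannot be told apart.

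Cells make serine from the glycolytic intermediate 3-phosphoglycerate in 3 steps. PHGDH oxidizes it, PSAT1 moves an amino group from glutamate onto the product, and PSPH removes the phosphate. Serine hydroxymethyltransferase then splits serine into glycine and a one-carbon unit carried by folate, in the mitochondria as SHMT2 and in the cytosol and nucleus as SHMT1. The one-carbon units feed nucleotide synthesis, and the transcription factor ATF4 is a known activator of PHGDH, PSAT1 and SHMT2.

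Depth ranged from 23555205 to 28615770 counts per sample. CPT1A itself followed the labels, with a mean level, in library-scaled counts (CPM, TMM-normalised), of 263.6 ± 2.65 for NT (SD, n = 2), 84.6 ± 2.92 for KD (n = 3), 321.7 ± 5.67 for EV (n = 2) and 881.6 ± 28.2 for OE (n = 3). Replicate 2 of KD and replicate 2 of OE stood apart from the others of their lines, the chi-square between count profiles, per degree of freedom, being 7.14 and 7.29 for the pairs with KD 2 against 2.35 for the other KD pair, and of 4.05 and 4.69 for the pairs with OE 2 against 2.23. All 10 markers of prostate epithelium chosen for this check were expressed in every line, with a summed level of 6442 to 6722 CPM in the NT line, 9210 to 10060 in KD, 8817 to 9246 in EV, then 12260 to 12720 in OE. Of 13 markers of leukocytes, fibroblasts, endothelium, basal and neuroendocrine cells, 6 to 8 had no count in a line, PTPRC, CD3E, PECAM1, KRT5 and CHGA among those at or near 0, and the summed level was 16.94 to 17.51 CPM for NT, 23.58 to 25.64 for KD, 15.8 to 17.1 for EV and 20.7 to 23 for OE, most of it from COL1A1 and VWF. Only COL1A1, VWF and KRT14 of them were tested, of which 2 rose in KD versus NT and 3 in OE versus EV. Of the prostate markers 7 rose and 2 fell in KD versus NT, and 7 rose and 3 fell in OE versus EV, TMPRSS2 by 0.43 upward and 0.16 downward, and FOLH1 by 0.55 and 0.14 downward. The part of these markers in the results was not tested.

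The plot of the 5 genes by sample gives the levels from which the comparisons were made.

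**Figure D1:**
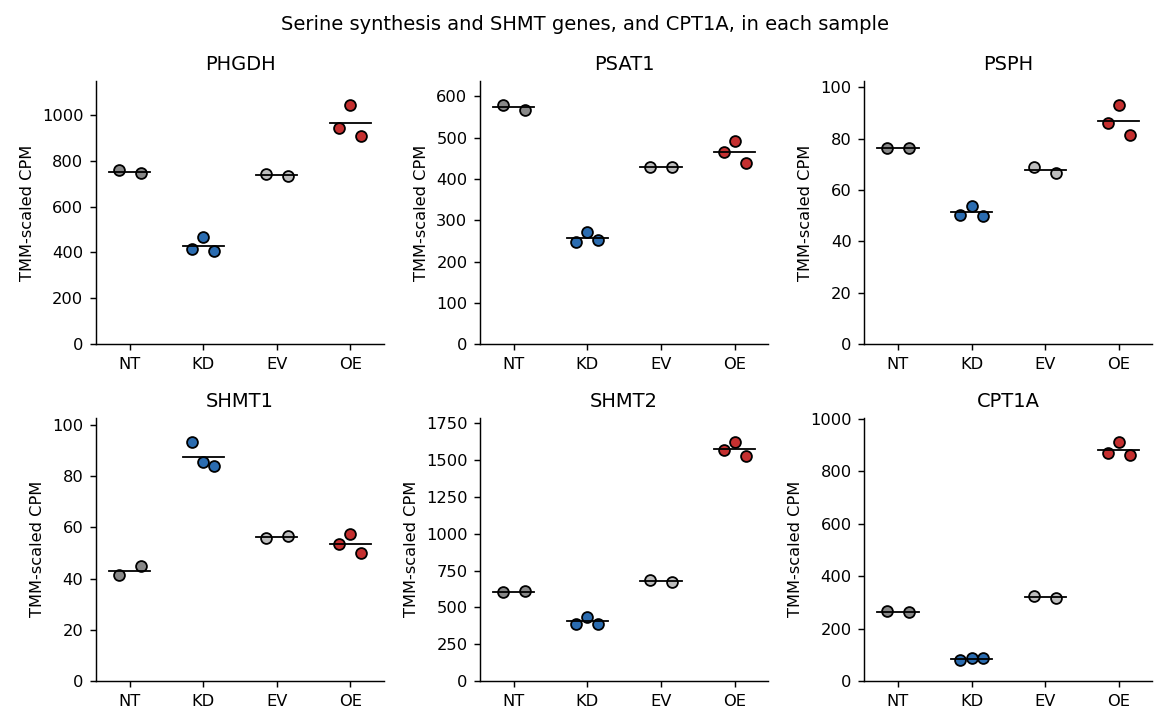
CPM of PHGDH, PSAT1, PSPH, SHMT1, SHMT2 and CPT1A (vertical axes, each from 0) in the 10 samples by line (horizontal axis: NT, KD, EV, OE). Points are samples and lines are means; SHMT2 lies at 1531 to 1626 CPM in OE and at or below 683.5 CPM elsewhere, and SHMT1 is highest in KD.

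PHGDH (chromosome 1, 119648411 to 119744218, plus strand, GRCh38) had 759 and 745.8 CPM in the NT line, 414.7, 465.8 and 406.4 in KD, 740.8 and 733.6 in EV, then 941, 1043 and 907.5 in OE. The NT and EV samples lay close to each other, the KD samples lay below all others and the OE samples above all others. PHGDH is the entry enzyme of the route.
PSAT1 (chromosome 9, 78297125 to 78330093, plus strand) had 579 and 567.6 CPM in the NT line, 247.4, 252.2 and 272.1 in KD, 428.2 and 428.4 in EV, then 437.8, 464.7 and 492.6 in OE. Here NT was the highest line and KD the lowest, with EV and OE between them and next to each other.
PSPH (chromosome 7, 56011051 to 56051604, minus strand) had 76.44 and 76.41 CPM in the NT line, 49.99, 50.41 and 53.89 in KD, 66.77 and 68.95 in EV, then 81.45, 85.87 and 93.05 in OE. Its order of lines was that of PHGDH, with KD lowest, then EV, NT and OE. The table also holds PSPHP1, a pseudogene copy of PSPH, at 57 to 93 counts per sample, 4.16% of the PSPH counts in all, with a log2 fold change of -0.36 in KD versus NT and 0.12 in OE versus EV (edgeR adjusted p = 0.0932 and 0.612). How reads shared by gene and copy were assigned is not stated in the sources used here, and the 4 PSAT1 pseudogenes and SHMT1P1 had at most 6 counts in any sample.

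SHMT2 (chromosome 12, 57229573 to 57234935, plus strand), the mitochondrial enzyme, had 603 and 608.3 CPM in the NT line, 388, 434.3 and 389.9 in KD, 683.5 and 669.1 in EV, then 1570, 1626 and 1531 in OE. Each OE sample lay above every sample of the other lines.
SHMT1 (chromosome 17, 18327860 to 18363563, minus strand), the cytosolic and nuclear enzyme, had 41.2 and 45 CPM in the NT line, 93.47, 85.45 and 83.79 in KD, 55.89 and 56.71 in EV, then 53.56, 57.25 and 49.87 in OE. KD was the highest line for this gene alone among the 5, and the EV and OE samples overlapped.
Within the lines, OE 2 had the highest level of the 3 OE samples for all 5 genes, and KD 2 the highest of the 3 KD samples for PHGDH, PSAT1, PSPH and SHMT2.

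The sequences before the RefSeq start sites of PHGDH, PSAT1 and SHMT1 are shown because the first pair fell in KD while SHMT1 rose there. They are the 250 bases upstream, 5′ to 3′ on the strand of the gene, from RefSeq on GRCh38.p14, where 3 of the 5 genes were matched (PSPH and SHMT2 were not). Capitals mark CCAAT, the letters bound by the factor NF-Y, or its reverse complement ATTGG. Coordinates are chr1:119711684-119711933 (plus), chr9:78296875-78297124 (plus) and chr17:18363551-18363800 (minus).
PHGDH: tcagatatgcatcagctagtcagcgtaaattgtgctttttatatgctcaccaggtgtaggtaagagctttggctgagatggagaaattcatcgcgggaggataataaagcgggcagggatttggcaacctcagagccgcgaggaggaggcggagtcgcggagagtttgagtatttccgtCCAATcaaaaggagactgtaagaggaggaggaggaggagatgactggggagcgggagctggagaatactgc
PSAT1: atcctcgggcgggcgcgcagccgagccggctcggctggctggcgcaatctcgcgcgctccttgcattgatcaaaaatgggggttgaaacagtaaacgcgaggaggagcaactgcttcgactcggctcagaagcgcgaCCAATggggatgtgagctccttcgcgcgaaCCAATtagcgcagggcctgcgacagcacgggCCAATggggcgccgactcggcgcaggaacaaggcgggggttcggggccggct
SHMT1: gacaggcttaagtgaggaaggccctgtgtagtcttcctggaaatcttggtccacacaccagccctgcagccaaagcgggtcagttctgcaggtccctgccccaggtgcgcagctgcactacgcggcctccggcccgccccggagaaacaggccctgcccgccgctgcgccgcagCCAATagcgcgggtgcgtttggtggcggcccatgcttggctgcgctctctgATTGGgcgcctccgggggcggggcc
PHGDH had 1 match to CCAAT, 71 to 67 bases before the start, PSAT1 had 3, from 113, 83 and 52 bases before it, and SHMT1 had 2, of which the nearer was on the opposite strand. Such a match is common, since 32% of 35116 promoters of the same length held one. On either strand, none of the 3 windows held TGATGNAA, the composite site of ATF4 and C/EBP (3.14% of promoters), TGACGTCA, the full ATF/CREB site (1.65%), TGACNNNGC, the core of the NRF2 element (10.9%), or CACGTG, the E-box of MYC (6.34%). No matches of different motifs overlapped in these windows, and the search says only that these letters are not in these bases. GC content was 51.2% for PHGDH, 65.6% for PSAT1 and 68.4% for SHMT1.

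Against its non-targeting control, the KD line had lower levels of the 3 serine synthesis enzymes and SHMT2 and a higher level of SHMT1. All 5 genes passed an adjusted p of 0.05 in edgeR's quasi-likelihood test, 4 lower and 1 higher. Of 17230 tested genes 57.5% passed, 28.4% lower and 29.1% higher. PSAT1 fell by 1.16 on the log2 scale (SE 0.0508, 2.23-fold lower, adjusted p by edgeR = 2.37e-15) and PHGDH by 0.81 (SE 0.0574, adjusted p = 1.56e-11, same edgeR test). SHMT2 fell by 0.58 (SE 0.0501) and PSPH by 0.57 (SE 0.058), with adjusted p of 4.94e-10 and 8.56e-09 in that edgeR test. SHMT1 rose by 1.02 (SE 0.065, 2.03-fold, edgeR adjusted p = 2.11e-12), which placed it 864th from the highest of the tested genes. PSAT1 stood 857th from the lowest, while CPT1A stood 354th from the lowest. The median log2 fold change was -0.58 over the 5 genes and -0.02 over all tested genes. At the study's own limit of 0.0001 all 5 were still called, 4 lower and 1 higher, where 29.1% of tested genes were called, 12.8% lower and 16.4% higher.

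Against the empty virus line, SHMT2 had the largest rise of the 5 genes in the OE line. Of the 5 genes 3 passed and all 3 rose, against 52% of tested genes called, 25.6% higher and 26.4% lower. SHMT2 rose by 1.22 on the log2 scale (SE 0.052, 2.33-fold, adjusted p by edgeR = 5.56e-15), the 241st highest of 17230 log2 fold changes. PHGDH rose by 0.39 (SE 0.0583, edgeR adjusted p = 5.99e-06) and PSPH by 0.35 (SE 0.0579, edgeR adjusted p = 1.73e-05), which ranked 3072nd and 3433rd. PSAT1 had a log2 fold change of 0.12 (SE 0.0514, edgeR adjusted p = 0.057) although its 3 OE samples lay above both EV samples, and it passed in 10 of 19 alternative analyses, whose adjusted p ranged from 0.0121 to 0.725. SHMT1 had -0.07 (SE 0.0646, edgeR adjusted p = 0.36). A scaling by library size alone brought SHMT1 to -0.17 with an adjusted p of 0.0331 in the same edgeR test, while the median of all genes moved to -0.12. The median was 0.35 over the 5 genes and -0.02 over all tested genes. At the limit of 0.0001 SHMT2, PHGDH and PSPH passed, all higher, where 21.9% of tested genes did, 11.6% higher and 10.3% lower.

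In the study, OE and KD were each set against their own control and then compared, which is an interaction term. It gives the difference between the change with gain of CPT1A and the change with its loss, which also departs from 0 where a single arm moves or both move alike by unequal amounts. All 5 genes passed, 4 higher and 1 lower, where 44.3% of tested genes passed, 20.3% higher and 24% lower. At the limit of 0.0001 all 5 passed too, where 15.9% of tested genes did, 6.94% higher and 8.98% lower. The log2 values were 1.80 for SHMT2 (SE 0.0717), 1.28 for PSAT1 (SE 0.0729), 1.20 for PHGDH (SE 0.0822), 0.93 for PSPH (SE 0.082) and -1.10 for SHMT1 (SE 0.0912), and the highest adjusted p was 2.37e-09 (PSPH, edgeR). The study itself singled out PHGDH, PSAT1 and SHMT2 in these samples. It also named PSPH in a heatmap limited to serine and folate genes that were higher in OE than in KD. The direction of these 4 genes here is therefore not independent evidence. The interaction is arithmetic of the arms, which therefore stand side by side in the plot of the changes. For SHMT2, 1.22 came from OE versus EV and 0.58 from KD versus NT. For PSAT1 and SHMT1 it was KD versus NT that gave nearly the whole value, and for PHGDH and PSPH the KD part was the larger one.

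**Figure D2:**
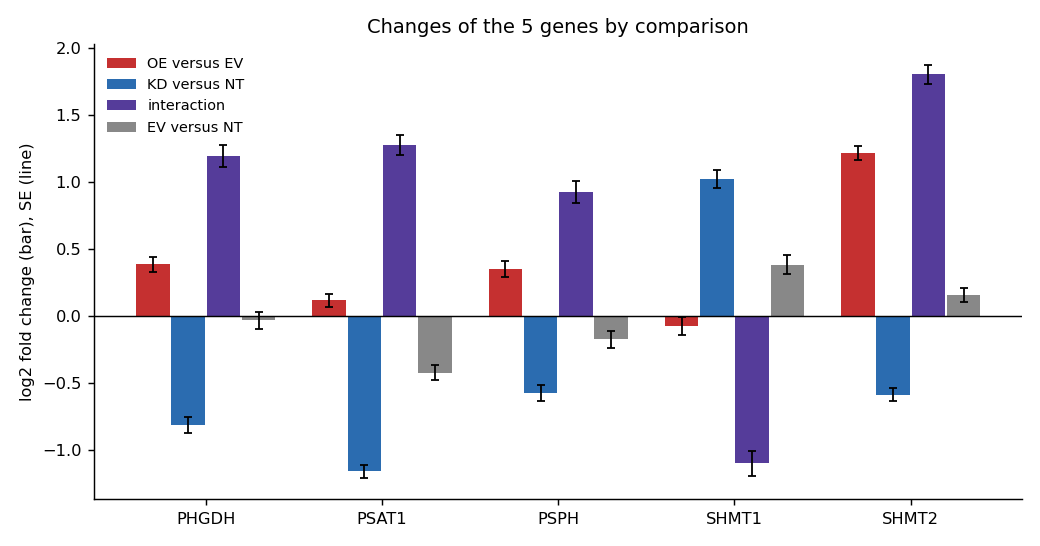
Log2 fold change (bars, vertical axis, from 0) with SE (lines) of the 5 genes in 4 comparisons. In OE versus EV the bar of SHMT2 (1.22) is the tallest, in KD versus NT those of PSAT1 (-1.16) and SHMT1 (1.02) are the longest, and EV versus NT runs from -0.42 (PSAT1) to 0.39 (SHMT1).

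The control lines were not alike for these genes. In EV versus NT 4 of 5 passed, 2 higher and 2 lower, where 34.1% of tested genes passed, 18.5% higher and 15.5% lower. PSAT1 was lower in EV by a log2 value of -0.42 (SE 0.0561, edgeR adjusted p = 3.11e-06) and SHMT1 was higher by 0.39 (SE 0.0718, edgeR adjusted p = 0.000186). PSPH had -0.17 and SHMT2 0.16 (edgeR adjusted p = 0.0385 and 0.0278), and PHGDH had -0.03 (edgeR adjusted p = 0.762). At the limit of 0.0001 PSAT1 alone passed, where 8.16% of tested genes did, 5.25% higher and 2.91% lower. Leaving out any 1 of the 4 control samples left 2 genes called in place of 4, PSPH and SHMT2 being lost each time. PSAT1 in OE, at 437.8 to 492.6 CPM, was below its level in NT, at 567.6 to 579 CPM, so its place between the lines depended on which control was used.
Compared directly, without the controls, OE was above KD for 4 genes and below it for SHMT1, and all 5 passed where 59.8% of tested genes did, 29.2% higher and 30.6% lower. At 0.0001 all 5 passed as well, where 31.9% did, 15.5% higher and 16.4% lower. The log2 values were 1.96 for SHMT2, 1.17 for PHGDH, 0.85 for PSAT1, 0.75 for PSPH and -0.71 for SHMT1, with SE from 0.0465 to 0.0562 and adjusted p of at most 1.09e-10 (edgeR). Without KD 2 and OE 2, an analysis chosen after the data were seen, the number of the 5 genes called was 5 for the interaction, 3 for OE versus EV, 5 for KD versus NT, 4 for EV versus NT and 5 for OE versus KD. In the same order, 8232, 9058, 10094, 7133 and 10119 of all 17125 genes tested there were called.

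Levels were compared between genes per length, as CPM per kb of the canonical GENCODE transcript (1.866 kb for PHGDH, 2.206 for PSAT1, 1.974 for PSPH, 2.527 for SHMT1 and 2.157 for SHMT2). In NT and EV the order from high to low was PHGDH, SHMT2, PSAT1, PSPH, SHMT1. In OE, SHMT2 at 730.6 ± 22.1 CPM per kb passed PHGDH at 516.6 ± 37.9 (SD, n = 3). In KD, SHMT1 at 34.7 ± 2.05 CPM per kb passed PSPH at 26.1 ± 1.08 (SD, n = 3). PSPH and SHMT1, the enzyme of the last synthesis step and the cytosolic SHMT, were the 2 least abundant of the 5 in every line.

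Ratios of 2 genes within a library do not depend on how the libraries are scaled. The ratio of SHMT2 to SHMT1, in counts per kb, was 17.2 and 15.8 in the NT line, 4.86, 5.95 and 5.45 in KD, 14.3 and 13.8 in EV, then 34.4, 33.3 and 36 in OE. The balance between the mitochondrial and the cytosolic enzyme thus lay lowest in KD and highest in OE, with no overlap between any 2 lines. SHMT2 passed the test in both arms, and SHMT1 in KD versus NT. The ratio of SHMT2 to PHGDH was 1.35 to 1.46 in OE and 0.687 to 0.83 in the other lines, so SHMT2 stood above PHGDH per length in the OE libraries only, among these lines.
Among the synthesis enzymes the ratios were closer. PHGDH to PSPH was 8.6 to 9.14 in KD and 10.3 to 11.9 in the other 3 lines. PHGDH to PSAT1 was 1.55 in both NT samples, 1.91 to 2.02 in KD, 2.03 and 2.05 in EV and 2.39 to 2.5 in OE, so NT cells carried the most PSAT1 per PHGDH. The ratios are given as values, with no test.

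**Figure D3:**
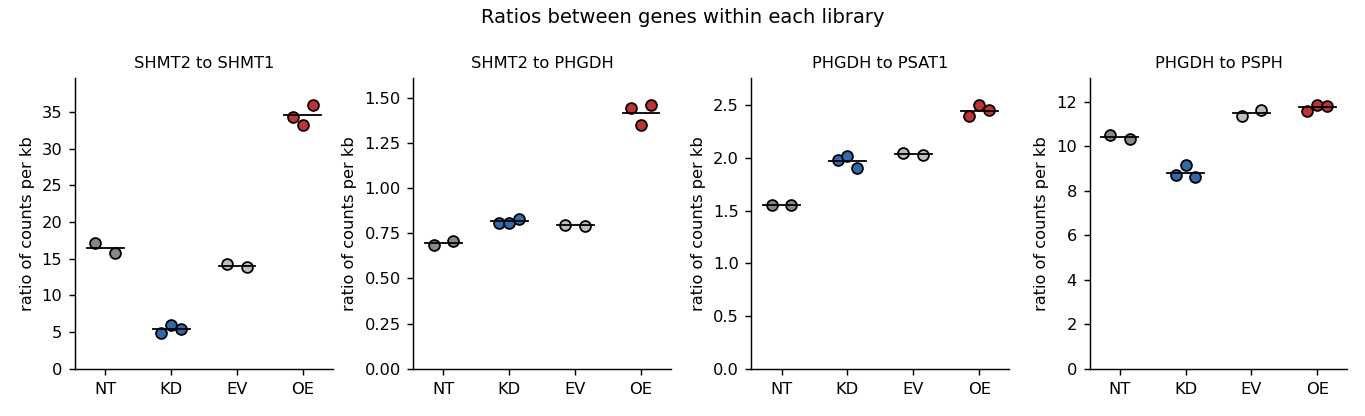
Ratios of counts per kb between 2 genes (vertical axes, each from 0) in each of the 10 libraries, by line (horizontal axis). Points are samples and lines are means; SHMT2 to SHMT1 runs from 4.86 in a KD sample to 36 in an OE sample, while PHGDH to PSPH stays between 8.6 and 11.9.

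The neighbours of the 5 genes were examined after their values were seen. Within 200 kb of SHMT2 on chromosome 12, 9 other genes were tested. In OE versus EV 2 of them rose and 1 fell, where 25.6% of all tested genes rose and 26.4% fell. The 2 that rose are the adjacent genes on either side of SHMT2. NXPH4 (57216794 to 57226449, plus strand), which encodes a secreted neurexophilin, ends 3123 bases before SHMT2, and NDUFA4L2 (57234903 to 57240715, minus strand), which encodes a mitochondrial protein known as a hypoxia-inducible gene product, shares its last 33 bases with the end of SHMT2.
NXPH4 had 69.16 and 68.75 CPM in the NT line, 77.19, 82.65 and 74.53 in KD, 78.19 and 81.78 in EV, then 818, 858.6 and 829.6 in OE. NDUFA4L2 had 12.68 and 12.23 CPM in the NT line, 4.44, 5.76 and 6.17 in KD, 14.3 and 13.9 in EV, then 108.7, 101.7 and 116.2 in OE. Both were far above every other line in all 3 OE samples, as SHMT2 was.
Their log2 fold changes in OE versus EV were 3.39 (NXPH4, SE 0.0555, edgeR adjusted p = 2.04e-23) and 2.95 (NDUFA4L2, SE 0.0839, edgeR adjusted p = 1.61e-18), the 10th and 16th highest of 17230. The next tested genes outward had 0.05 (LRP1, edgeR adjusted p = 0.569) and -0.16 (STAC3, edgeR adjusted p = 0.734), and R3HDM2 had 0.003 (edgeR adjusted p = 0.969). LRP1 was at 67.1 and 73.3 CPM in EV and 71.9 to 74 in OE, and R3HDM2 at 47.9 and 49.7 in EV and 46.3 to 50.5 in OE. STAC3 was at only 0.585 and 0.852 CPM in EV and 0.498 to 0.89 in OE, so its log2 value was imprecise (SE 0.346).
In KD versus NT these 3 adjacent genes did not go together. SHMT2 fell by 0.58 on the log2 scale and NDUFA4L2 by 1.18 (edgeR adjusted p = 1.61e-09), while NXPH4 rose by 0.18 (edgeR adjusted p = 0.00564), and LRP1 and R3HDM2 fell as well, by 0.51 and 0.39 (edgeR adjusted p = 1.81e-06 and 9.41e-06). Whether the changes of the 3 adjacent genes in OE share a source was not tested. Since the strand setting of the counting is not stated, reads over the shared 33 bases could be placed with either gene. NDUFA4L2 had 1.15% to 7.59% as many counts as SHMT2. With all of its counts subtracted from SHMT2, the mean level in OE was 2.215 times that in EV, against 2.33 times without subtraction. The subtracted counts are those placed with NDUFA4L2, so this cannot show how many of its reads were placed with SHMT2.

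**Figure D4:**
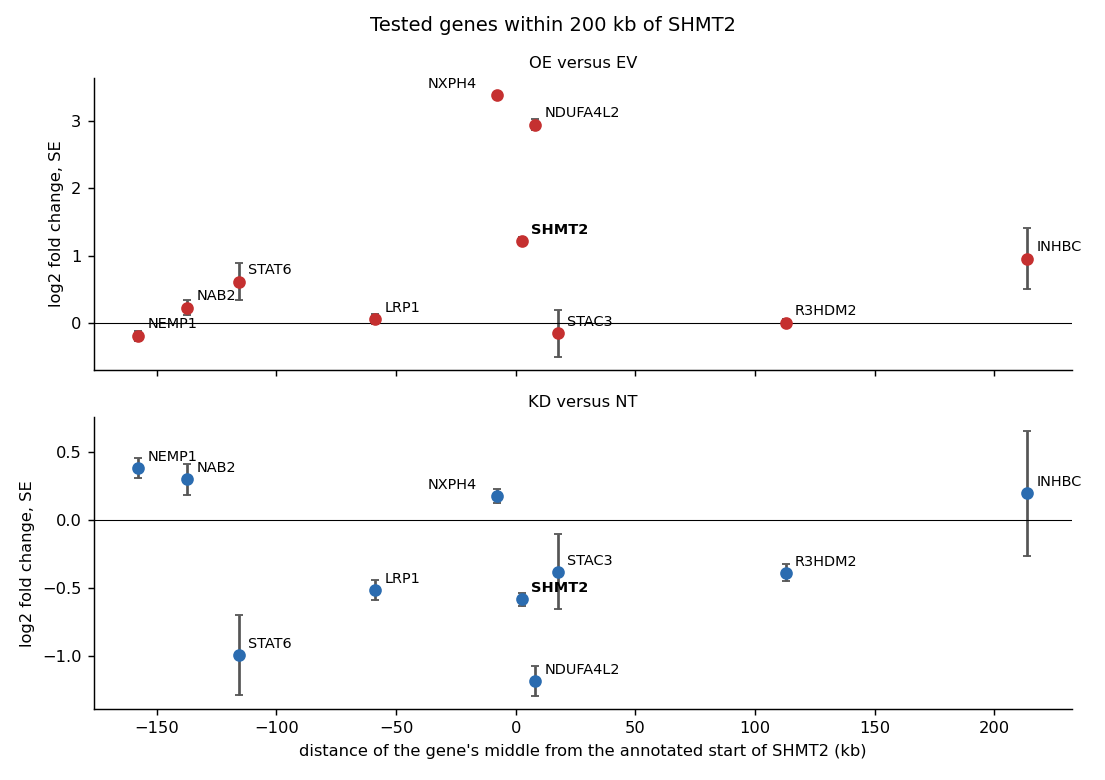
Log2 fold change with SE (vertical axis) of SHMT2 and the 9 tested genes within 200 kb, against the distance of each gene's middle from the start of SHMT2 in kb (horizontal axis), in OE versus EV (upper) and KD versus NT (lower). In the upper panel NXPH4 (3.39), SHMT2 (1.22) and NDUFA4L2 (2.95) stand side by side above LRP1 (0.05) and R3HDM2 (0.003).

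The other 4 genes were read in the same window. The 3 tested genes within 200 kb of PHGDH all rose in KD versus NT, by 0.40 to 0.89 on the log2 scale, where PHGDH fell, and the 1 tested neighbour of PSAT1 rose by 0.80 where PSAT1 fell. Of 7 tested neighbours of PSPH, 1 rose and 1 fell in KD versus NT, and of 9 of SHMT1, 5 rose and 1 fell. These counts stand against 29.1% of all tested genes higher and 28.4% lower in KD versus NT. SHMT1 shares 197 bases at its end with SMCR8 on the opposite strand. SMCR8 had 1545 to 2526 counts per sample, and SHMT1 had 1092 to 2526. SMCR8 rose in KD versus NT by 0.32 and in OE versus EV by 0.25 (edgeR adjusted p = 1.7e-05 and 0.000269), a smaller change than that of SHMT1 in KD. The part of reads over the shared bases in the SHMT1 counts was not tested.

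The genes whose log2 CPM followed each member most closely over the 10 samples were taken by Pearson's r, as a description, since the samples form 4 lines. PHGDH was followed by PCK2, the mitochondrial phosphoenolpyruvate carboxykinase (r = 0.9986), RBCK1 (0.9984) and SLC3A2, the shared subunit of several amino acid transporters (0.9969). PSAT1 was followed by AARS, the cytosolic alanyl-tRNA synthetase (0.9983), PTPRH (0.9955) and IGBP1 (0.992), and PSPH by OSER1, RTN3 and FAU (0.9943, 0.9929 and 0.9914). PSPH was the member nearest to PHGDH, 37th in its list at r = 0.9848.
SHMT1 was followed by PPIF (0.9911), CLN6 (0.9905) and MTHFD1, the trifunctional cytosolic folate enzyme (0.99). MTHFD1 had a mean of 143.3 CPM in the NT line, 232.3 in KD, 170.4 in EV, then 161.1 in OE, the order of lines that SHMT1 had. SHMT2 was followed by MID1IP1, AC010618.1 and ZNF205 (0.9962, 0.9958 and 0.9954), none of which rose as steeply, MID1IP1 being at 227.2 CPM in EV and 316.2 in OE. At r of at least 0.95 there were 176 to 306 genes for each member, so close likeness was common in these lines.

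Folate enzymes around the SHMT genes were read from lists by compartment. The counts of this and the next lists stand against 28.4% of all tested genes lower and 29.1% higher in KD versus NT, and for OE versus EV against 25.6% higher and 26.4% lower. The median of all tested genes was -0.02 for each of these comparisons. Of 12 cytosolic and nuclear enzymes 7 rose and 1 fell in KD versus NT, and the median was 0.22 on the log2 scale against -0.02 over all tested genes. TYMS, which makes thymidylate, rose by 1.69 and MTHFD1 by 0.70 (edgeR adjusted p = 2.62e-16 and 6.54e-12). In OE versus EV 5 rose and 2 fell, TYMS by 0.27 upward (edgeR adjusted p = 0.00132), and MTHFD1 had -0.08 (edgeR adjusted p = 0.148). SHMT1 and both of these enzymes were higher in KD than in NT.
All 12 proliferation genes of a further list rose in KD versus NT (median 1.63), among them MKI67, MCM3 and RRM2 at 2.10, 1.39 and 1.85 (edgeR adjusted p = 3.66e-17, 1.46e-16 and 1e-16). Their summed level was 627.9 to 679.5 CPM in NT and 1691 to 1983 CPM in KD, and 677.2 to 680.7 CPM in EV and 828.8 to 858.9 CPM in OE, where 7 rose and 2 fell. The part of proliferation in the change of SHMT1 was not tested.

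Of 6 mitochondrial folate enzymes, 3 fell and 2 rose in KD versus NT (median -0.14), where 57.5% of all tested genes were called. In OE versus EV 1 rose and 1 fell (median -0.01), where 52% were called. MTHFD2, which uses the one-carbon unit released by SHMT2, fell by 0.82 in KD (edgeR adjusted p = 6.51e-13) and rose by 0.18 in OE (edgeR adjusted p = 0.0039), where SHMT2 rose by 1.22. MTHFD1L, which releases the unit as formate, fell by 0.85 in KD (edgeR adjusted p = 1.7e-10) and had 0.05 in OE (edgeR adjusted p = 0.587). ALDH1L2, which oxidizes the unit to carbon dioxide, had a mean of 1.12 CPM in the NT line, 1.62 in KD, 15.4 in EV, then 0.717 in OE, and fell by 4.40 in OE versus EV (edgeR adjusted p = 3.43e-16). As EV stood far above NT for this gene, at a log2 value of 3.77 (edgeR adjusted p = 2.8e-14), the size of the fall depended on the control, and OE versus KD gave -1.15 (edgeR adjusted p = 8.95e-05).

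Of 11 genes for transport of serine and glycine, 9 were tested. In KD versus NT 5 fell and 2 rose (median -0.59), against 28.4% of all tested genes lower and 29.1% higher. In OE versus EV 6 rose and 2 fell (median 0.25), against 25.6% higher and 26.4% lower. SLC6A9, a glycine transporter, fell by 1.40 in KD and rose by 0.76 in OE (edgeR adjusted p = 4.49e-15 and 5.45e-10), and SLC1A4, a neutral amino acid transporter that carries serine, fell by 0.95 and rose by 0.72 (edgeR adjusted p = 3.06e-10 and 2.46e-08). SLC38A2, a further neutral amino acid transporter, fell by 0.79 and rose by 0.14 (edgeR adjusted p = 2.07e-13 and 0.0122). SFXN1, which carries serine into mitochondria, rose by 0.75 in KD and had -0.03 in OE, and was singled out after its values were seen.
Of 11 genes of serine and glycine breakdown 8 were tested, of which 4 rose and 1 fell in KD versus NT (median 0.14) and 3 rose and 2 fell in OE versus EV (median 0.12), near the 57.5% and 52% called over all tested genes. SDSL, a serine dehydratase-like enzyme, fell by 0.99 in KD and rose by 0.25 in OE (edgeR adjusted p = 1.87e-10 and 0.00849). DLD, a subunit shared by the glycine cleavage system and other dehydrogenases, fell by 0.82 in OE and had 0.01 in KD (edgeR adjusted p = 7.8e-12 and 0.864). GCSH, the lipoyl carrier of the glycine cleavage system, rose by 0.84 in KD and fell by 0.54 in OE (edgeR adjusted p = 0.000527 and 0.0134), at line means of 1.75 to 3.46 CPM.

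Among 9 enzymes that use serine for lipids or transsulfuration, 8 were tested, of which 3 rose and 3 fell in KD versus NT (median 0.12) and 2 rose and 3 fell in OE versus EV (median 0.08), where 57.5% and 52% of all tested genes were called. CTH, which releases cysteine from cystathionine, fell by 1.69 in KD and rose by 0.85 in OE (edgeR adjusted p = 9.34e-15 and 1.12e-09). The subunits of serine palmitoyltransferase moved less and apart from each other, SPTLC1 with -0.37 in KD and 0.05 in OE and SPTLC2 with 0.29 and -0.20 (edgeR adjusted p = 5.72e-06, 0.501, 5.75e-05 and 0.00337). SPTLC3, singled out after its values were seen, fell by 2.68 in OE versus EV (edgeR adjusted p = 0.00253), at a mean of 0.378 CPM in EV and 0.0582 in OE.
Of 14 genes of glycolysis and glutamate metabolism, among them PGAM1, ENO1 and PKM, which act below the branch to serine, 10 rose and 3 fell in OE versus EV (median 0.38), and 9 rose and 3 fell in KD versus NT (median 0.28). ALDOA, a glycolytic aldolase, rose by 0.98 in OE and 0.18 in KD (edgeR adjusted p = 1.47e-11 and 0.0215). GOT2, the mitochondrial aspartate aminotransferase, rose by 0.20 and 0.91, and GPT2, the mitochondrial alanine aminotransferase, fell by 0.23 and 0.86 in the same order (edgeR adjusted p from 3.46e-13 to 0.00225). GPI, PFKP, TPI1 and PGK1, which like ALDOA act above the branch to serine, rose in both arms, and GAPDH rose by 0.37 in OE and had -0.02 in KD (edgeR adjusted p = 8.21e-07 and 0.766).

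Of 11 regulators of serine synthesis, 6 fell and 2 rose in KD versus NT (median -0.24), where 28.4% of all tested genes fell and 29.1% rose. In OE versus EV 7 rose and 2 fell (median 0.32), where 25.6% rose and 26.4% fell. ATF4 had a mean of 1167 CPM in the NT line, 483.1 in KD, 897.3 in EV, then 1145 in OE, CEBPB 73.5, 29.4, 68.4 and 117.4, and ATF3 66.5, 19.5, 51.1 and 69.9. ATF4 had its highest level in NT and fell from NT to EV by 0.38 on the log2 scale (edgeR adjusted p = 1.05e-05), the direction that PSAT1 took by 0.42. In EV versus NT, PSPH had -0.17 and PHGDH -0.03, while SHMT2 and SHMT1 had 0.16 and 0.39. The part of ATF4 in these differences was not tested. In KD versus NT the 3 factors fell by 1.27, 1.32 and 1.77, and in OE versus EV they rose by 0.35, 0.78 and 0.45 (edgeR adjusted p of at most 1.22e-05). MYC had 0.26 and 0.42 and NFE2L2, which encodes NRF2, -0.32 and -0.05 in KD versus NT and OE versus EV.

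**Figure D5:**
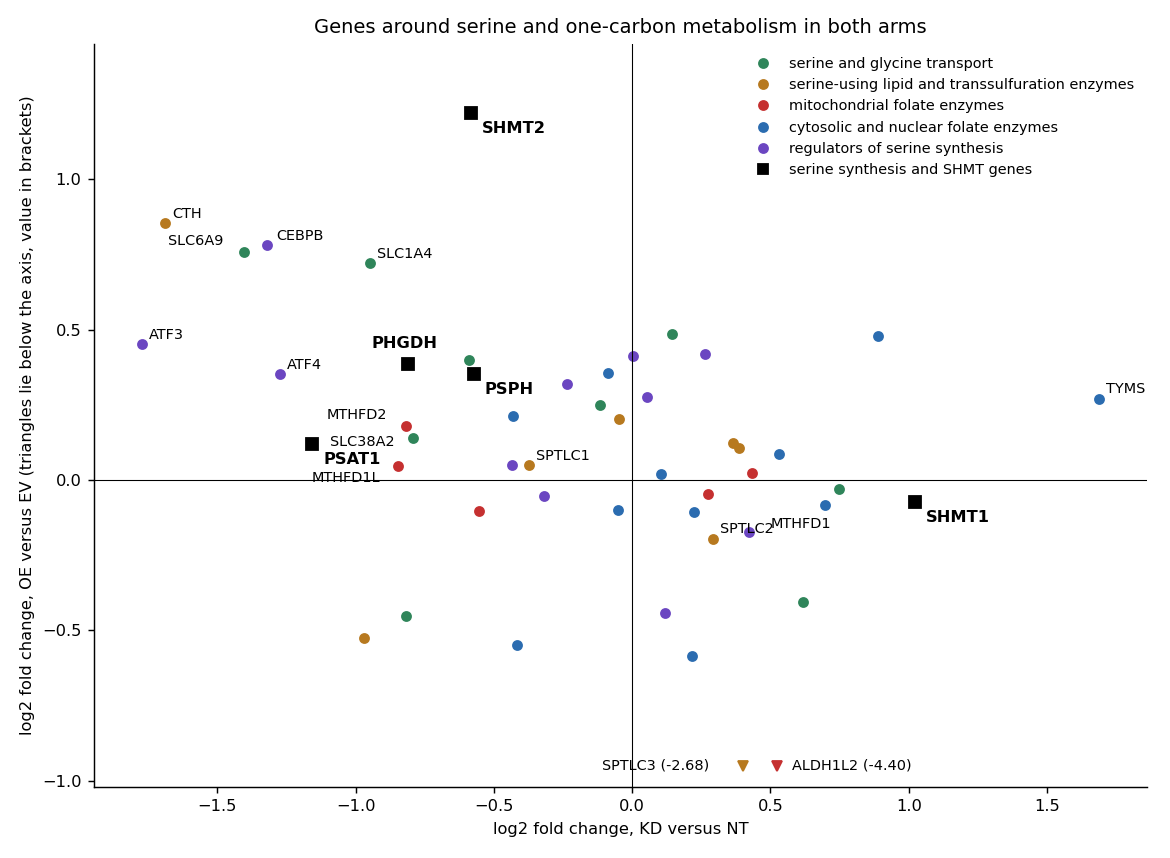
Log2 fold change in OE versus EV (vertical axis) against that in KD versus NT (horizontal axis) for the 5 genes (squares) and tested genes of 5 lists (colored points, with up to 3 of smallest interaction p per list named). PHGDH, PSAT1, PSPH and SHMT2 lie in the upper left with ATF4, CEBPB and CTH, SHMT1 lies at the right with MTHFD1, and ALDH1L2 (-4.40) and SPTLC3 (-2.68) are drawn as triangles at the lower edge.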

How the data were processed

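RNA was sequenced in pairs from mRNA libraries of 10 samples. The authors trimmed reads with BBDuk, mapped and counted them with STAR 2.6.0a against the Ensembl hg38.p12 transcriptome, and deposited unnormalized counts for 57353 gene symbols in 10 columns. The strand setting and the handling of multi-mapping reads are not given in the sources used here. Samples were grouped by their titles into NT, KD, EV and OE.

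Counts were filtered with filterByExpr (minimum count 10), scaled with TMM, and fitted with 1 mean per line over all 10 samples. The quasi-likelihood F test of edgeR 4.0.16 (R 4.3.3) gave p-values, which were adjusted by Benjamini and Hochberg's method across 17230 genes and read at 0.05, and at the study's limit of 0.0001 where said. The SE is the log2 fold change divided by the root of F. The common biological coefficient of variation was 0.0446. Calling was tested on simulated data.

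The members and lists were chosen with earlier results of these data known. Named genes were the members, CPT1A, copies of members, the 3 genes of smallest interaction p in each list (transport, breakdown, use, folate, glycolysis and glutamate, regulators, proliferation, prostate epithelium, other cell types) and the 3 genes most like each member. Genes that this rule names but the text does not are not reported here. Positions, overlaps and canonical lengths came from GENCODE v44 on GRCh38, the build of the authors. Promoters came from RefSeq and were checked against the hg38 genome.

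The test was also run with limma-voom (limma 3.58.1), the study's tool, and as the Wald test of DESeq2 1.42.0. Scaling was varied (library size alone, size factors of DESeq2), as was the filter (none, or 10 counts or more throughout), and fits were made with the replicate number as a block, on each arm alone and without each sample. The analysis without KD 2 and OE 2 was added after the data were seen. Precision is limited by 2 or 3 samples per line.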

Additional observations from a re-analysis of the deposited data

Results flagged for a closer look

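For each of the 5 genes the change of OE from EV differed from the change of KD from NT by a test of the difference itself, which marked them for a closer look (edgeR, adjusted p of at most 2.37e-09, with 10 samples). Of all tested genes 44.3% passed the same test at an adjusted p of 0.05, so passing it was not particular to these 5. The differences on the log2 scale were 1.80 for SHMT2, 1.28 for PSAT1, 1.20 for PHGDH, 0.93 for PSPH and -1.10 for SHMT1. In SHMT2 the OE arm carried more of it, and in the other 4 genes the KD arm did.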

How the results depend on the processing

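Over 25 fold changes (5 genes in 5 comparisons) and 19 alternatives, 460 values were computed, of which 438 kept their direction and their side of an adjusted p of 0.05, 11 fell out of it, 11 came into it and 0 changed direction. The 11 that came in were PSAT1 and SHMT1 in OE versus EV, with 0.13 for PSAT1 under DESeq2 size factors, and the 11 that fell out were PSPH and SHMT2 in EV versus NT. Leaving out 1 sample at a time gave 2 to 4 of the 5 genes called in EV versus NT, 3 to 4 in OE versus EV and 5 in the other comparisons. Of all tested genes it gave 3839 to 6670 in EV versus NT, the lowest without EV replicate 1, against 5867 with all samples. Without both KD 2 and OE 2 it was 7133. A line reduced to 1 sample is assumed to vary like the others. Scaling by library size alone moved the median of all genes in OE versus EV from -0.02 to -0.12, in the interaction to -0.15 and in OE versus KD to -0.15, and the share of higher genes among those called from 49.3% to 36.5%, from 45.8% to 30.7% and from 48.8% to 34.5%. The replicate numbers are not described as batches. Same-numbered samples of different lines had residual correlations of -0.0443 to 0.0783 over 13 pairs, and other pairs had -0.081 to 0.063 over 24. Residuals were taken from means of only 2 or 3 samples, so these values cannot decide whether same-numbered samples shared a batch. With the replicate block 7889 genes were called for the interaction, 9089 for OE versus EV and 9917 for KD versus NT, against 7631, 8956 and 9905, and 4 of the 5 genes in OE versus EV in place of 3, PSAT1 being added at 0.15. Genes with few counts, such as the pseudogene copies, allow no statement at this depth.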
